A study of Homo sapiens with 8 samples.

Results

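This account describes the genomic regions where mTOR peaks were called in LNCaP cells given androgen, in FoxA1-knockdown cells, and in knockdown cells given androgen, but not in control cells given vehicle. Peaks of the 4 mTOR lists on chromosomes 1 to 22, X and Y that overlapped by at least 1 bp were merged into union regions, and 2668 of the 61118 union regions (4.37%) had peaks in the lists shEV R1881, shFoxA1 EtOH and shFoxA1 R1881 while the shEV EtOH list had none. These regions, chosen by the presence or absence of called peaks, are named the members here, so their number and their absence from shEV EtOH are a description and carry no test.

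LNCaP is an androgen-responsive cell line derived from human prostate cancer. The cells carried an shRNA against FoxA1 (shFoxA1) or the empty vector (shEV). All groups were first kept for 48 h in RPMI medium with 2% charcoal-stripped serum, which removes androgen. They then received 10 nM R1881, a synthetic androgen, or ethanol (EtOH, 0.1%) for another 24 h, and chromatin was immunoprecipitated with an antibody to mTOR and sequenced as paired-end reads of 150 bp. The groups were therefore shEV R1881, shFoxA1 EtOH, shFoxA1 R1881 and the control shEV EtOH, each with 1 mTOR library and 1 input library, 8 in all. The 4 inputs were not analysed here. With 1 library per group, no difference between groups has a replicate check and no p-value is given. No source used here gives the hairpin sequence or the number of clones behind each line, and the peak lists do not measure the FoxA1 level, so the knockdown was not checked.

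mTOR is the kinase at the core of the complexes mTORC1 and mTORC2, which couple nutrients and growth factors to protein and lipid synthesis, and a part of it is found in the nucleus on chromatin. FoxA1 is a pioneer factor that opens chromatin at forkhead motifs and helps place the androgen receptor in prostate cells. The androgen receptor, once bound by a ligand such as R1881, occupies mostly distal enhancers of genes such as KLK3 and PMEPA1.

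Of the 436 member regions annotated to a promoter, 4 are shown by sequence. They were taken from the 8 ranked highest by their lowest rank in the 3 lists, and some of higher rank, such as BAAT, were left out. Their motif matches differ. The GC content of the window was 60.3% at TXNIP, 73.7% at FZD9, 72.3% at FOXJ3 and 70.3% at EEFSEC. Each line is the RefSeq promoter window of GRCh38.p14, 250 bases before to 50 after the gene start, read 5′ to 3′ on the gene's strand. Every window lies wholly inside its member region. Capitals mark matches on either strand to the motifs searched, which were TGTTTAC (forkhead), AGAACA (the androgen receptor's hexamer), CCGGAA (ETS), GGGCGG (SP/KLF box), CCAAT, TGACGTCA (cAMP response element), CACGTG (E-box), TGANTCA (AP-1) and the full palindromic androgen response element, which holds the hexamer. TXNIP, which encodes a thioredoxin-binding protein that restrains glucose uptake, has its window at chr1:145996530-145996829 on the minus strand. FZD9, a Wnt receptor, has it at chr7:73433528-73433827 on the plus strand. FOXJ3, a forkhead transcription factor, has it at chr1:42335186-42335485 on the minus strand, and EEFSEC, the elongation factor that inserts selenocysteine, at chr3:128153231-128153530 on the plus strand.
TXNIP: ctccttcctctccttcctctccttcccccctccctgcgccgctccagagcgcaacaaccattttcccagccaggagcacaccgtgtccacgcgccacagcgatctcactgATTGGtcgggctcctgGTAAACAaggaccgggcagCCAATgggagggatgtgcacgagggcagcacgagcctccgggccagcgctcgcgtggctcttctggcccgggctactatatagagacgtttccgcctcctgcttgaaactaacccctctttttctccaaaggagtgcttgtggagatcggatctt
FZD9: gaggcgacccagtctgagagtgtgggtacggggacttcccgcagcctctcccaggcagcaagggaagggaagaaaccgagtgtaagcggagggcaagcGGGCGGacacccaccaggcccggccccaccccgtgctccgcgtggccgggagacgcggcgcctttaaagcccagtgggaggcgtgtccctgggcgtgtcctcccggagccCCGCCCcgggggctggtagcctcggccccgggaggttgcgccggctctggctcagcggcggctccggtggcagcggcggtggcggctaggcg
FOXJ3: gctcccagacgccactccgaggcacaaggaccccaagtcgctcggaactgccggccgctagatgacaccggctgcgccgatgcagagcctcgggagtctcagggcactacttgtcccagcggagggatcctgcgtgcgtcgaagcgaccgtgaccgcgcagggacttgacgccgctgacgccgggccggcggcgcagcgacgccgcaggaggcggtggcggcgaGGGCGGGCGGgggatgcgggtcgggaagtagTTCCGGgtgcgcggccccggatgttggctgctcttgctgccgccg
EEFSEC: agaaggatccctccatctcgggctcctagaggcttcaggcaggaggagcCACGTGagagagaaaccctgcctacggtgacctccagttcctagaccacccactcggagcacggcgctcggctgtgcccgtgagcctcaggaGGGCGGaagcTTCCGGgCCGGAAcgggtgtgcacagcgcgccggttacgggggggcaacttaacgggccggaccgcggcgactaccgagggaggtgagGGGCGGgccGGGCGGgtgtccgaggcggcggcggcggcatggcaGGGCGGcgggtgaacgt
The TXNIP window held 1 forkhead match and 2 CCAAT matches and no SP/KLF box. The FZD9 window held 2 SP/KLF boxes, the FOXJ3 window 2 overlapping SP/KLF boxes and 1 ETS match, and the EEFSEC window 4 SP/KLF boxes, 2 ETS matches and 1 E-box. A match is a description of the letters and not of binding.

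TXNIP's region, chr1:145996379-145996917, had a score of 179 in shEV R1881 cells, 401 in shFoxA1 EtOH cells and 221 in shFoxA1 R1881 cells, with no peak in shEV EtOH. The score is the authors' own value for a peak and ranks peaks only within 1 list. Here these scores had rank percentiles of 86.7, 95.2 and 90.1 in their own lists, in the same order. Many peaks of a list had the same score, and such ties were given their mean rank. The nearest shEV EtOH peak was 38477 bp away. At FZD9, chr7:73433161-73433937, the scores were 157 in shEV R1881 cells, 200 in shFoxA1 EtOH cells and 209 in shFoxA1 R1881 cells. At FOXJ3, chr1:42334910-42335845, they were 125 in shEV R1881 cells, 297 in shFoxA1 EtOH cells and 132 in shFoxA1 R1881 cells. The FOXJ3 region is the member promoter with the longest stretch to a shEV EtOH peak among these 4, 99550 bp, while the EEFSEC region had one at 3653 bp. EEFSEC, chr3:128153122-128153849, had 114 in shEV R1881 cells, 188 in shFoxA1 EtOH cells and 142 in shFoxA1 R1881 cells.

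Regions with a peak in exactly 3 of the 4 lists numbered 7671, and they were split unevenly. The list that was missing was shEV EtOH in 2668 of them (34.8%, Wilson 95% interval 33.7 to 35.9%), shEV R1881 in 3048 (39.7%), shFoxA1 EtOH in 960 (12.5%) and shFoxA1 R1881 in 995 (13.0%). The 2 shEV lists were thus the ones most often missing, and they were also the shortest, with 26074 peaks in shEV R1881 and 24948 in shEV EtOH, against 35121 in shFoxA1 EtOH and 39570 in shFoxA1 R1881. The regions missing only in shEV R1881 are the mirror of the members, having the knockdown lists in common and the opposite treatment of the shEV cells, and are used below as one comparison. When every list was shortened to its 24948 highest-scoring peaks, 1555 regions were missing only in shEV EtOH, 1901 only in shEV R1881, 1077 only in shFoxA1 EtOH and 1375 only in shFoxA1 R1881. The depth of the libraries is unknown, so a longer list and more bound sites cannot be told apart. Intervals here and below cover counting error only.

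**Figure D1:**
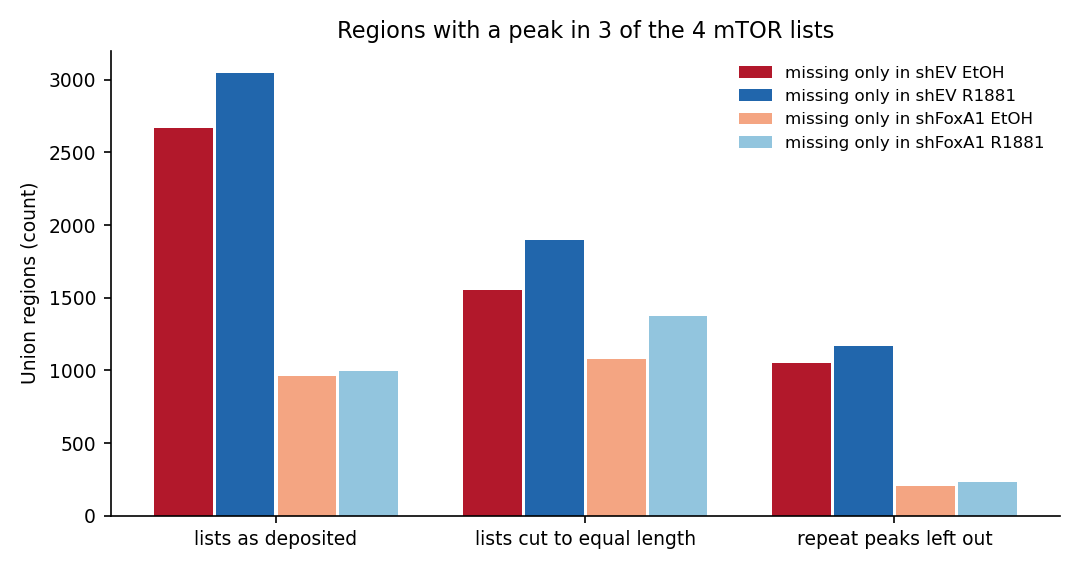
Number of union regions missing from exactly 1 of the 4 mTOR peak lists (vertical axis, count), for the lists as deposited, cut to equal length, and without peaks annotated to repeats. In each of the 3 settings the bar for shEV R1881 is the highest and the bar for shEV EtOH, the members, the second highest (2668, 1555 and 1051).

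The members made up 23.4% of the 11401 regions gained in shEV R1881 relative to shEV EtOH, 15.7% of the 16978 gained in shFoxA1 EtOH and 12.1% of the 22128 gained in shFoxA1 R1881. Among all regions called in either list of each pair, gained regions were 31.8% in the shEV R1881 comparison, 40.9% in that of shFoxA1 EtOH and 47.5% in that of shFoxA1 R1881. Those shares used the same lists as the rule, and nothing is read from them. Another 4222 regions had peaks in both shFoxA1 lists only, and 11634 had peaks in all 4 lists.

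Most members held 1 peak in each list. The rule joins overlapping peaks, so bases in common follow largely from it. Of the 2668 regions, 2584 had exactly 1 peak in each of the 3 lists, and in 2559 the 3 peaks had at least 1 base in common. The stretch common to all 3 peaks had a median of 313 bp, and the outermost peak centres lay a median of 141 bp apart. These centres were within 100 bp in 923 members (34.6%), and the 90th percentile of their distance was 414 bp. The members' median width was 690 bp, between that of regions in all 4 lists (885.5 bp) and that of all union regions (499 bp). The nearest shEV EtOH peak was a median of 26268 bp away, with a range from 17 bp to 1.78e+06 bp. It lay within 1000 bp in 147 members (5.51%) and within 5000 bp in 471 (17.7%). In the mirror set, the nearest shEV R1881 peak was a median of 27897 bp away and lay within 1000 bp in 4.46%. At the edge of the rule, 10 members had a shEV EtOH peak within 100 bp, and 5 regions of all 4 lists had a shEV EtOH overlap of at most 100 bp, the smallest being 2 bp.

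The members held more promoters than all union regions and than the regions found in all 4 lists, and fewer repeats than either. A promoter was the annotation of 436 members (16.3%, Wilson 95% interval 14.99 to 17.8%), against 9.77% of all union regions and 11.1% of the regions in all 4 lists, the last a difference of 5.21 percentage points (Newcombe 95% interval 3.74 to 6.77). A repeat was the annotation of 1588 members (59.5%, 57.6 to 61.4%), against 64.1% of all union regions and 69.7% of the regions in all 4 lists, the last a difference of -10.2 points (-12.2 to -8.14). LTR elements, the remains of endogenous retroviruses, held 14.6% of members (13.3 to 15.97%), 15.05% of all union regions and 26.4% of the regions in all 4 lists. The members were thus near the general share, and -11.9 points (-13.4 to -10.3) from the share in the regions of all 4 lists. Satellite repeats, which fill centromeres, held 1.61% of members, 2.49% of all union regions and 5.05% of the regions in all 4 lists. LINE elements held 33.5% of members, 35.01% of all union regions and 29.9% of the regions in all 4 lists. Young L1 elements, the L1HS and L1PA2 to L1PA8 subfamilies that are specific to primates, held 14.96% of members (13.7 to 16.4%), 15.8% of all union regions and 9.64% of the regions in all 4 lists. For LINE and young L1 elements, too, the members were close to the general share, and it was the regions in all 4 lists that held fewer.

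Against the mirror set, the position of the members was much closer. Promoters held 16.3% of members and 17.4% of the mirror regions, a difference of -1.05 points whose interval, -2.98 to 0.905, includes 0. The share in any repeat was 59.5% of members and 60.6% of mirror regions (-1.11 points, -3.65 to 1.43). Some classes did differ beyond counting error. Regions within 1 kb of a gene start were 23.2% of members and 26.0% of mirror regions (-2.85 points, -5.08 to -0.608), and those annotated to a CpG island 4.09% and 5.54% (-1.46 points, -2.57 to -0.343). Peaks with a GC content of 60% or more were 21.6% of members and 26.7% of mirror regions (-5.12 points, -7.33 to -2.90). LTR elements held 14.6% of members and 17.2% of mirror regions (-2.58 points, -4.47 to -0.677). Within them, the ERV1 family held 3.86% of members and 6.50% of mirror regions (-2.64 points, -3.78 to -1.49), while SVA elements held 1.76% and 2.95%, satellites 1.61% and 2.59%, simple repeats 1.01% and 0.492%, L2 elements, old and immobile LINEs, 1.91% and 0.919%, and transcript ends 1.42% and 0.853%. The regions called only in both shFoxA1 lists had more promoters than the members (19.8%) and fewer repeats (51.2%). These intervals are not adjusted for the number of classes compared, and they treat regions of the same libraries as independent.

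**Figure D2:**
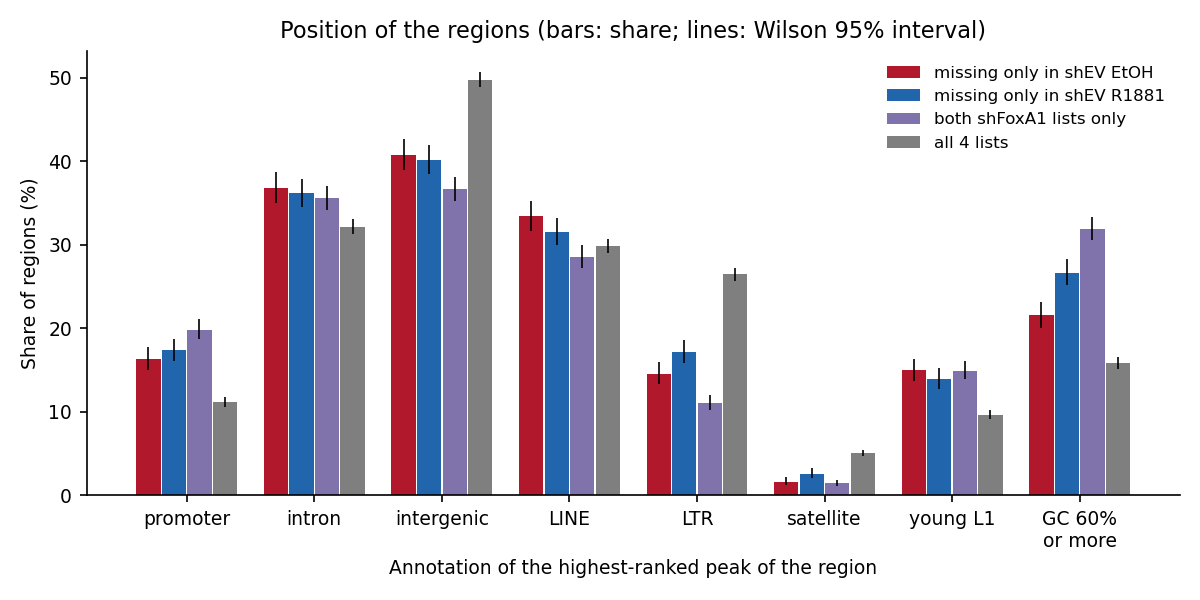
Share of regions in 8 annotation classes (vertical axis, percent of the regions of a set; lines, Wilson 95% intervals) for the members, the mirror regions missing only in shEV R1881, the regions called only in both shFoxA1 lists and the regions in all 4 lists. Members have more promoter, young L1 and GC-rich regions than the regions in all 4 lists and fewer LTR, satellite and intergenic ones; over all union regions, not drawn, young L1 held 15.8% and LTR 15.05%, close to the members' 14.96% and 14.6%.

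The base composition of the members followed these classes. The median GC content was 62.7% in promoter members, 40.3% in repeat members and 54.9% in the 644 that were neither, against 59.98% in the mirror regions that were neither. The repeat subfamilies with the most members were L1PA7 (93), L1PA4 (72), L1PA5 (68), L1PA3 (67) and L1PA6 (57), all of them young L1 and common among the union regions. Members were 5.29%, 4.14%, 3.53%, 3.62% and 4.76% of the union regions in these subfamilies, in the same order, around the 4.37% over all regions. Members were 40 of 1400 alpha satellite regions (2.86%), 28 of 517 regions in MER11A, an LTR of the ERVK family (5.42%), and 23 of 314 in MER11C (7.32%). Reads from young L1 and alpha satellite copies are hard to place, and no source used here says how such reads were treated. By chromosome, members were between 2.55% of the union regions on chromosome 13 and 5.44% on chromosome 22. Another member lay within 10 kb of 139 members (5.21%), and the median distance to the nearest member was 249958 bp.

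Member peaks ranked below the general level of the union regions in the shEV R1881 list, at it in shFoxA1 EtOH and above it in shFoxA1 R1881. Their median score was 50 in shEV R1881 (quartiles 34 to 76, highest 562), 66 in shFoxA1 EtOH (42 to 86.5, highest 401) and 74 in shFoxA1 R1881 (49 to 102, highest 1079). The medians of their rank percentiles, each within its own list, were 38.0, 52.0 and 59.4 in the same order. Over all union regions with a peak in the list they were 53.5, 52.0 and 52.9. For the regions in all 4 lists those medians were 72.9, 80.9 and 82.3, with 72.6 in shEV EtOH. The mirror regions had medians of 58.1 in shFoxA1 EtOH, 52.9 in shFoxA1 R1881 and 38.4 in shEV EtOH, so in both sets the shEV peak was the one of lowest rank. At least 1 of the 3 peaks fell in the lowest 20% of its list in 1162 members (43.6%), against 1449 regions in all 4 lists (12.5%). Taken list by list, the lowest 20% of shEV R1881 held 28.2% of members and 23.6% of all union regions with a peak there. For shFoxA1 EtOH these shares were 17.8% and 22.8%, and for shFoxA1 R1881 they were 12.6% and 23.6%. Only the shEV R1881 share of the members was thus above the general one. All 3 peaks stood in the highest 20% in 19 members (0.712%), against 3759 regions in all 4 lists (32.3%).

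**Figure D3:**
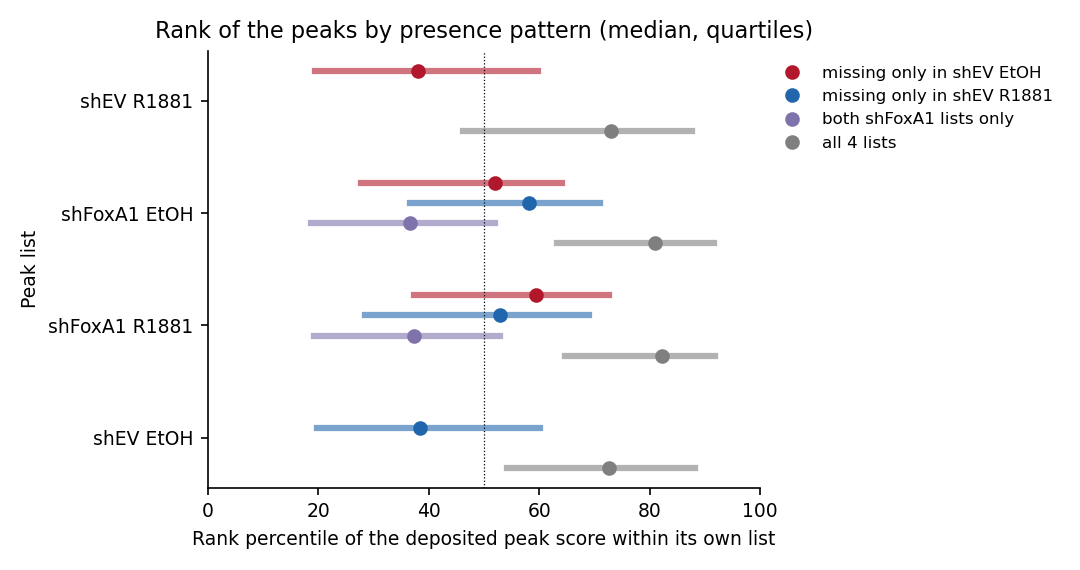
Rank percentile of the deposited peak score within its own list (horizontal axis; points, medians; bars, quartiles) for 4 sets of regions in each of the 4 peak lists. Member medians are 38.0 in shEV R1881 cells, 52.0 in shFoxA1 EtOH cells and 59.4 in shFoxA1 R1881 cells, below those of the regions in all 4 lists in each case.

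Across the 2668 members, the scores of the R1881 libraries went together more than the other pairs did. The Spearman rank correlation was 0.42 between shEV R1881 and shFoxA1 R1881, 0.30 between shFoxA1 EtOH and shFoxA1 R1881 and 0.26 between shEV R1881 and shFoxA1 EtOH. Over the 11634 regions in all 4 lists the same pairs gave 0.77, 0.76 and 0.72. The points are regions of the same libraries and the scores depend on unknown depths, so these are descriptions. Members whose lowest rank was highest were more often repeats and less often promoters. From the lowest to the highest of 3 equal groups by that rank, repeats were 48.7%, 59.3% and 70.6% of members and promoters 19.8%, 17.0% and 12.2%. The other sets went the same way. The median lowest rank percentile was 19.3 in promoter and 28.9 in repeat members, and 19.8 and 36.6 in the mirror set. It was 38.4 and 64.7 in the regions of all 4 lists, and 19.8 and 29.2 over all union regions.

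**Figure D4:**
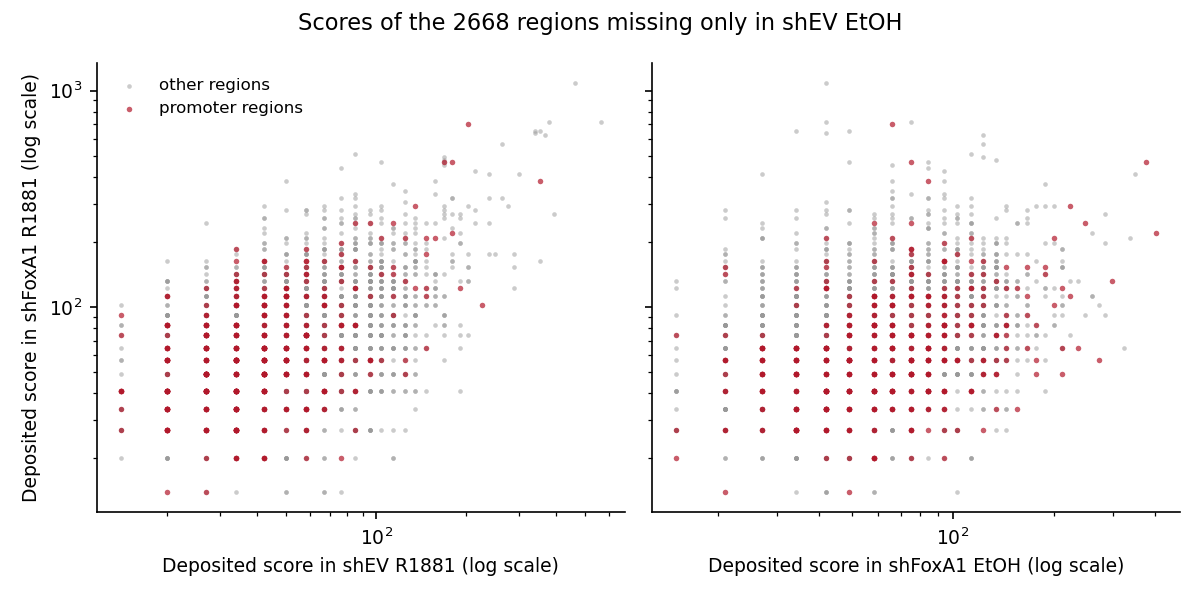
Deposited peak scores of the 2668 members (log axes, no unit), shFoxA1 R1881 against shEV R1881 on the left and against shFoxA1 EtOH on the right, with promoter members in red. On the left the members with the highest scores lie high on both axes, and on the right the member with the highest shFoxA1 R1881 score, 1079 at PMEPA1, has a shFoxA1 EtOH score of 42.

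In 92 members (3.45%) the peak stood in the highest 20% of both the shEV R1881 and the shFoxA1 R1881 lists. Of these, 42 were intergenic (45.7%), 37 intronic (40.2%) and 9 at promoters (9.78%), and 51 (55.4%) were in repeats. Over all union regions the shares were 45.6%, 39.4%, 9.77% and 64.1%, in the same order. In the same 92 regions the shFoxA1 EtOH peak was in the lowest 20% of its list in 12 and in the highest 20% in 19. In the mirror set, 82 regions (2.69%) stood in the highest 20% of both EtOH lists, and 87.8% of them were in repeats.

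PMEPA1, an androgen-induced gene whose product dampens TGF-beta signalling, had the member with the highest shFoxA1 R1881 score. That region, chr20:57772876-57773952, lies at -61770 bp from the gene's start in intergenic sequence and outside repeats. Its scores were 462 in shEV R1881 cells, 42 in shFoxA1 EtOH cells and 1079 in shFoxA1 R1881 cells, with the nearest shEV EtOH peak 34370 bp away. It was one of 10 union regions between chr20 positions 57679067 and 57792069. Of those, 3 were members, 4 had peaks in both R1881 lists only and none had peaks in all 4 lists. The second member, chr20:57756818-57758566, had scores of 42 in shEV R1881 cells, 49 in shFoxA1 EtOH cells and 74 in shFoxA1 R1881 cells. The third, chr20:57709899-57711072, covers the PMEPA1 promoter, which is shared with the start of the non-coding gene NKILA, and had 85 in shEV R1881 cells, 113 in shFoxA1 EtOH cells and 164 in shFoxA1 R1881 cells. The distal region thus had rank percentiles of 96.5 in the shEV R1881 list, 27.7 in the shFoxA1 EtOH list and 99.0 in the shFoxA1 R1881 list.

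Other members with high ranks in both R1881 lists were picked out after their values were seen. FBXO31, which encodes an F-box subunit of a ubiquitin ligase, had a region in an LTR22A element of its intron 2 of 9, with scores of 379 in shEV R1881 cells, 75 in shFoxA1 EtOH cells and 714 in shFoxA1 R1881 cells. ZBTB8B, a zinc-finger gene, had one 36492 bp from its start with 352 in shEV R1881 cells, 34 in shFoxA1 EtOH cells and 654 in shFoxA1 R1881 cells. TMTC2, a membrane protein of the endoplasmic reticulum, had one in intron 4 of 11 with 339 in shEV R1881 cells, 42 in shFoxA1 EtOH cells and 639 in shFoxA1 R1881 cells. The shFoxA1 EtOH peaks of ZBTB8B and TMTC2 had rank percentiles of 18.6 and 27.7 in their list, and that of FBXO31 had 58.1. DCAF1, a substrate receptor of a cullin ubiquitin ligase, was the promoter among them, with 352 in shEV R1881 cells, 84 in shFoxA1 EtOH cells and 384 in shFoxA1 R1881 cells.

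In 52 members (1.95%) the peak stood in the highest 20% of both shFoxA1 lists, and in 1 of them the shEV R1881 peak was in the lowest 20% of its list. The mirror set had more such regions, 117 (3.84%), and in 3 of them the shEV EtOH peak was in the lowest 20% of its list. SMN2, needed for assembly of spliceosomal RNPs, led the 52 members with its promoter region chr5:70048963-70049617. It had scores of 179 in shEV R1881 cells, 375 in shFoxA1 EtOH cells and 466 in shFoxA1 R1881 cells. SMN2 has a near-identical copy, SMN1, so reads can be placed at either. The promoter region of the other copy, chr5:70924520-70924940, had peaks in all 4 lists, with 58 in shEV R1881, 94 in shFoxA1 EtOH, 92 in shFoxA1 R1881 and 125 in shEV EtOH. The absence of a shEV EtOH peak at SMN2 alone is therefore uncertain. C19orf73, whose start lay 159 bp away, was the nearest gene to a region annotated to a promoter. That region had 95 in shEV R1881 cells, 247 in shFoxA1 EtOH cells and 244 in shFoxA1 R1881 cells. TUBB3, a neuronal beta-tubulin, had one in a CpG island of its intron 1 of 3, with 104 in shEV R1881 cells, 284 in shFoxA1 EtOH cells and 197 in shFoxA1 R1881 cells.

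Ranked by the lowest of their 3 rank percentiles, the members near coding genes were led by SLC13A1, a sodium-sulfate cotransporter gene. Its region, chr7:123185322-123185929, lies in an L1MA8 element of intron 1 of 14, with scores of 393 in shEV R1881 cells, 284 in shFoxA1 EtOH cells and 269 in shFoxA1 R1881 cells. PRR5, which encodes a subunit of mTORC2, followed SMN2 and TXNIP in that order. The PRR5 region, chr22:44665887-44666555, lies at -2326 bp from the gene's start in an L1MD1 element, with 191 in shEV R1881 cells, 166 in shFoxA1 EtOH cells and 257 in shFoxA1 R1881 cells. Its peaks had rank percentiles of 84.0 to 91.8 in their lists, and the nearest shEV EtOH peak was 20338 bp away. RFLNA, a filamin-binding protein, had a region in intron 1 of 2 with 168 in shEV R1881 cells, 144 in shFoxA1 EtOH cells and 209 in shFoxA1 R1881 cells. GSTM1, a glutathione transferase, was the nearest gene to a region at -3122 bp from its start that was annotated to a transcript end. That region had 135 in shEV R1881 cells, 134 in shFoxA1 EtOH cells and 153 in shFoxA1 R1881 cells. It lies in a cluster of similar genes that can share reads. CLDN1, a tight-junction protein, had a region in an L1PA3 element 34680 bp from its start with 125 in shEV R1881 cells, 166 in shFoxA1 EtOH cells and 142 in shFoxA1 R1881 cells, and the nearest shEV EtOH peak was only 641 bp away.

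Further high-ranking members lay at promoters or outside repeats. BAAT, which conjugates bile acids to amino acids, had a promoter region with 135 in shEV R1881 cells, 223 in shFoxA1 EtOH cells and 294 in shFoxA1 R1881 cells. ARHGEF5, a guanine nucleotide exchange factor, had one with 191 in shEV R1881 cells, 211 in shFoxA1 EtOH cells and 122 in shFoxA1 R1881 cells. ZBTB6, a zinc-finger gene, had one with 135 in shEV R1881 cells, 144 in shFoxA1 EtOH cells and 122 in shFoxA1 R1881 cells. These promoters differ in which list holds their highest score, and the scores of different lists cannot be set against each other. ZBTB16, which encodes the transcription factor PLZF, had a region in intron 2 of 4, chr11:114159304-114160414, with 168 in shEV R1881 cells, 134 in shFoxA1 EtOH cells and 480 in shFoxA1 R1881 cells. SCARB1, the receptor for high-density lipoprotein, was the nearest gene to an intergenic region 75371 bp from its start with 125 in shEV R1881 cells, 155 in shFoxA1 EtOH cells and 244 in shFoxA1 R1881 cells. TMEM242, a mitochondrial protein needed to assemble ATP synthase, was the nearest gene to another, 102892 bp from its start, with 202 in shEV R1881 cells, 211 in shFoxA1 EtOH cells and 153 in shFoxA1 R1881 cells.

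Of 20037 coding genes, 1376 (6.87%) had a member region assigned to them within 50 kb of their start. Most of these, 1289, had 1 such region, 77 had 2 and 10 had 3. No shEV EtOH peak was assigned to 668 of the 1376 genes (48.5%, Wilson 95% interval 45.9 to 51.2%). A peak was assigned only to its deposited nearest gene, so a shEV EtOH peak assigned to another gene can still lie within 50 kb. In the mirror set, 758 of 1567 genes (48.4%) had no shEV R1881 peak assigned, and 149 genes had both a member and a mirror region. The genes below come from 14 lists of pathways and cell types with 401 different genes in all. Of these, 42 (10.5%) had a member, against 6.87% of all coding genes. Over the 12625 coding genes with a peak in any list, the member share was 10.9%. The gene lists varied in this, with any peak at 33 of 35 androgen-induced genes and 11 of 30 genes of unrelated tissues. Mirror regions lay at 7.82% of all coding genes, and their share over the 401 genes was not computed. Lists of small size make their shares imprecise, and nothing particular to a list is read from them.

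EHF, an ETS factor of epithelial cells, and MSL2, a subunit of a histone acetyltransferase complex, were the genes with 3 members and no assigned shEV EtOH region. Around EHF, 10 union regions lay between chr11 positions 34587173 and 34691308 and none had a shEV EtOH peak. The member at the EHF promoter had scores of 58 in shEV R1881 cells, 49 in shFoxA1 EtOH cells and 83 in shFoxA1 R1881 cells. The member in intron 1 of 8 had 76 in shEV R1881 cells, 75 in shFoxA1 EtOH cells and 257 in shFoxA1 R1881 cells, and the nearest shEV EtOH peak was 119361 bp away. The distal member, 35934 bp from the start, had 42 in shEV R1881 cells, 42 in shFoxA1 EtOH cells and 57 in shFoxA1 R1881 cells. The intronic region was thus the highest of the 3 in each of the 3 lists.

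Among 20 transcription factors of luminal prostate cells, 5 had a member, against 2 with a mirror region. Among these were EHF, GRHL1, GATA3 and FOXA1. GRHL1, a grainyhead factor of epithelia, had its promoter covered by a region of 1433 bp with 104 in shEV R1881 cells, 66 in shFoxA1 EtOH cells and 209 in shFoxA1 R1881 cells. GATA3, a zinc-finger factor of luminal epithelia, had a promoter region with 34 in shEV R1881 cells, 34 in shFoxA1 EtOH cells and 27 in shFoxA1 R1881 cells. FOXA1, the gene the hairpin targets, had a member 11090 bp from its start with 20 in shEV R1881 cells, 75 in shFoxA1 EtOH cells and 34 in shFoxA1 R1881 cells. The GATA3 and FOXA1 regions are thus near the low end of at least 1 list. At GATA3 the shEV R1881 peak ended at 8054288 and the shFoxA1 EtOH peak started at 8054330, and the shFoxA1 R1881 peak joined them. At FOXA1 the shEV R1881 peak ended at 37583755 and the shFoxA1 R1881 peak started at 37583813, and the shFoxA1 EtOH peak joined them. Neither region has a base common to these 3 peaks.

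Of 35 androgen-induced genes, 4 (11.4%) had a member, as did 4 with a mirror region. PMEPA1 and KLK3 were among them, and each of the 4 also had a shEV EtOH peak within 50 kb. KLK3, which encodes prostate-specific antigen and has a well-known androgen-responsive enhancer upstream, had its member, chr19:50850609-50852367, at -4031 bp from its start. The scores were 135 in shEV R1881 cells, 49 in shFoxA1 EtOH cells and 102 in shFoxA1 R1881 cells. The deposited annotation puts it in an LTR40a element, and the nearest shEV EtOH peak was 5708 bp away. Of 10 androgen-repressed genes, 2 had a member. UGT2B15, which glucuronidates androgens and belongs to a family of similar genes that can share reads, had its promoter region with 58 in shEV R1881 cells, 58 in shFoxA1 EtOH cells and 27 in shFoxA1 R1881 cells. PRUNE2 had an intronic region in an Alu-family element with 34 in shEV R1881 cells, 27 in shFoxA1 EtOH cells and 122 in shFoxA1 R1881 cells.

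The 40 genes of the mTOR pathway included 4 (10.0%) with a member, PRR5, RPTOR, SESN1 and ULK1, against 7 with a mirror region. ULK1, the kinase that starts autophagy and is inhibited by mTORC1, had an intergenic member at -22358 bp from its start with 58 in shEV R1881 cells, 75 in shFoxA1 EtOH cells and 132 in shFoxA1 R1881 cells. SESN1, a stress-induced inhibitor of mTORC1, had its promoter covered with 42 in shEV R1881 cells, 66 in shFoxA1 EtOH cells and 74 in shFoxA1 R1881 cells. PRR5 stands apart from these by its ranks in all 3 lists. Lipid and sterol synthesis had 4 of 32 genes with a member, against 7 with a mirror region. FASN, the fatty acid synthase, had one at -12085 bp from its start with 76 in shEV R1881 cells, 113 in shFoxA1 EtOH cells and 102 in shFoxA1 R1881 cells, and CYP51A1, of sterol synthesis, one with 34 in shEV R1881 cells, 66 in shFoxA1 EtOH cells and 122 in shFoxA1 R1881 cells.

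Glycolysis and glucose uptake had 4 of 25 genes with a member, LDHB, PDK1, PFKFB3 and SLC16A1, against 5 with a mirror region. PFKFB3, which makes an activator of phosphofructokinase, had 42 in shEV R1881 cells, 75 in shFoxA1 EtOH cells and 83 in shFoxA1 R1881 cells. SLC16A1, a lactate transporter, had a promoter region with 34 in shEV R1881 cells, 42 in shFoxA1 EtOH cells and 57 in shFoxA1 R1881 cells, with a shEV EtOH peak 231 bp away. The TCA cycle and respiratory chain had 3 of 39 genes (IDH2, SUCLG1 and UQCRFS1), and the cytosolic ribosomal proteins 3 of 53. RPL32, a protein of the large ribosomal subunit, had a promoter region with 50 in shEV R1881 cells, 84 in shFoxA1 EtOH cells and 142 in shFoxA1 R1881 cells. Cell cycle and replication had 2 of 35. CCND1, the G1 cyclin, had a region of 2253 bp over its last exon with 67 in shEV R1881 cells, 113 in shFoxA1 EtOH cells and 92 in shFoxA1 R1881 cells, and MCM7, of the replicative helicase, one over its first exon with 95 in shEV R1881 cells, 66 in shFoxA1 EtOH cells and 74 in shFoxA1 R1881 cells, with a shEV EtOH peak 605 bp away.

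Nuclear receptors and coregulators had 5 of 30 genes with a member (ESRRA, NCOA1, RARB and RXRA among them), as many as with a mirror region. NCOA1, a coactivator of steroid receptors, had one with 135 in shEV R1881 cells, 103 in shFoxA1 EtOH cells and 65 in shFoxA1 R1881 cells. Forkhead factors had 2 of 24, FOXA1 and FOXJ3. Markers of other cell states and tissues had members as well. Neuroendocrine markers had 2 of 18 genes, basal and mesenchymal markers 2 of 20 and genes of unrelated tissues 3 of 30. MYOD1, of skeletal muscle, had its promoter covered with 42 in shEV R1881 cells, 34 in shFoxA1 EtOH cells and 41 in shFoxA1 R1881 cells.

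**Figure D5:**
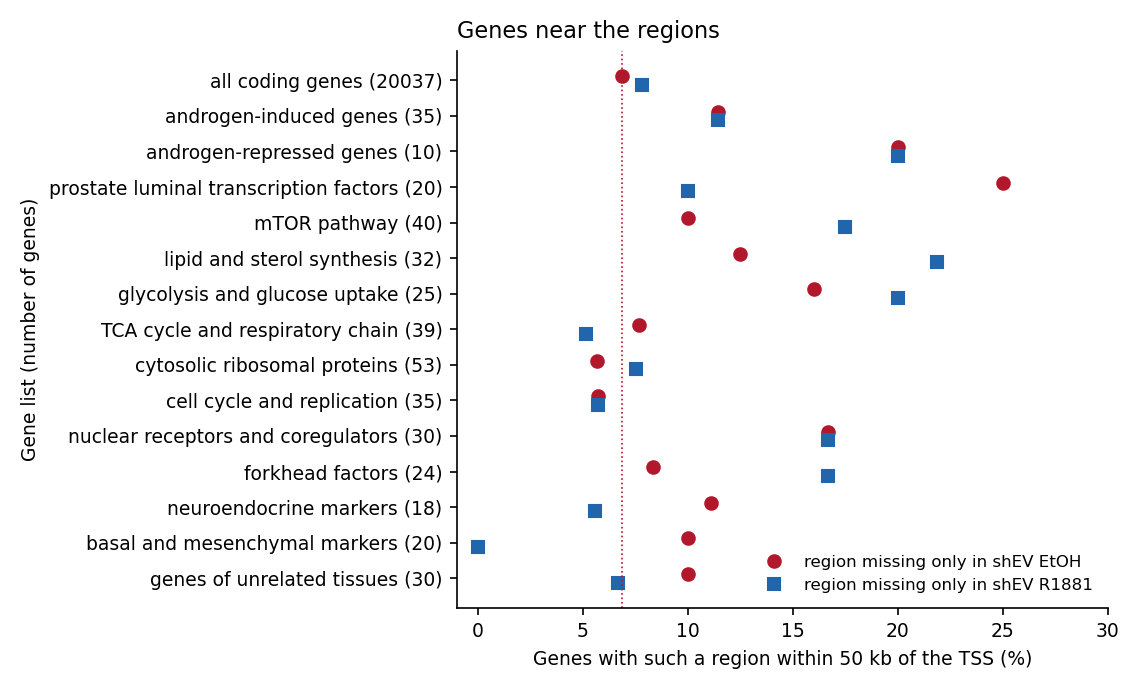
Share of the genes of each list (vertical axis, number of genes in brackets) with an assigned member region or mirror region within 50 kb of the gene's start (horizontal axis, percent). The dotted line is the member share over all coding genes, 6.87%, and each list holds at most 5 genes with a member.

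Member regions covered at least 150 of the 300 bases of 488 coding promoter windows, of 407 genes, which is 2.20% of the 22183 windows. Of the 370 regions that did so, 33 (8.92%) covered windows of genes on opposite strands. The windows of the members were GC-rich, with a median of 67.0%, against 62.3% over all windows. The SP/KLF box was in 73.6% of member windows and 56.3% of all windows, and the ETS letters in 29.9% and 21.2%. The forkhead letters were in 2.25% of member windows (11 of 488) and 2.85% of all, and the androgen hexamer in 6.15% and 11.7%. The full androgen response element was in 0 of 488 member windows, which allows a share of up to 0.781%, and in 0 of 22183 windows in all. Windows of the regions in all 4 lists gave nearly the same shares as the members, with 74.3% for the SP/KLF box, 30.2% for ETS and 1.73% for forkhead. Their median GC content was 67.3%. Among 1562 miRNA hairpins, 3 were overlapped by a member, MIR4505, MIR611 and MIR9718. For the hairpins and for the windows on opposite strands no share over other regions is given, so nothing is read from them.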

How the data were processed

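The data are 4 deposited lists of mTOR ChIP-seq peaks from LNCaP cells, 1 per library. The submitters' processing notes name, without roles, deepTools 3.5.0, HOMER 4.11.1, MACS2, Picard 2.0.1, BWA 0.7.12, Trimmomatic 0.36 and the build hg38. Each list is HOMER annotation output with peak names of a single library, per the file headers. No source used here gives the control, the threshold or the handling of duplicates. Peak scores were computed by the authors and deposited without a definition in these sources. The deposited fraction of G and C in a peak was printed as a percent. Annotation and nearest gene are as deposited.

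Peaks on chromosomes 1 to 22, X and Y were merged where they overlapped by at least 1 bp, with Python 3.11.15, pandas 2.3.3 and numpy 2.4.6. The merging was tested on simulated peaks. A region was assigned to its deposited nearest gene when within 50 kb of the start. Its highest-ranked peak gave its annotation. Promoter windows, miRNA hairpins and coding genes came from RefSeq GRCh38.p14. Shares have Wilson 95% intervals and their differences Newcombe intervals. No test was run, since each group had 1 library. Regions were named by the lowest of their 3 within-list rank percentiles (10 near coding genes, 8 outside repeats, 8 at promoters) and up to 3 genes per list. The members and gene lists were chosen with earlier results of these data known. Other overlap rules, list lengths, score limits and gene windows and the removal of repeats were tried. The values of some genes of the lists are not reported here.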

Additional observations from a re-analysis of the deposited data

Results flagged for a closer look

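Outside the chromosomes used above, 27 of 783 regions (3.45%) on unplaced contigs and the mitochondrial genome had peaks in shEV R1881, shFoxA1 EtOH and shFoxA1 R1881 and none in shEV EtOH, against 4.37% of the regions on the chromosomes. They were picked out because these sequences were left out of every comparison.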

How the results depend on the processing

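The main values were 2668 members, a ratio of 0.875 to the mirror count, 16.3% in promoters, 40.8% intergenic, 59.5% in repeats, a median GC of 45.9%, 1376 genes and 4 androgen-induced genes. Of 50 values recomputed with another setting, 22 stayed within the limits set for them and 28 moved. With each list shortened to 24948 peaks, there were 1555 members, the ratio was 0.818, 43.9% were intergenic and 63.6% in repeats, the GC median was 45.1% and 800 genes had a member. With each list cut at its median score, the values were 1290 members, 0.820, 12.8% promoter, 47.9% intergenic, 66.4% repeat, 44.4% GC and 607 genes. With that cut on 3 lists and shEV EtOH kept whole, they were 497 members, 0.181, 9.05%, 52.5%, 73.2%, 42.7%, 227 genes and 1 androgen-induced gene; the ratio follows from keeping 1 list whole. Without peaks in repeats, they were 1051 members, 41.6% promoter, 17.5% intergenic, 59.6% GC, 786 genes and 2 androgen-induced genes, and a share in repeats has no value there. A 10 kb window gave 852 genes. Requiring 100 bp of overlap gave 2659 members, and joining peaks up to 500 bp apart gave 2663. Leaving out members with a shEV EtOH peak within 1 kb, a setting chosen after seeing the data, gave 2522. The shortened lists hold fewer peaks by construction, and the cause of the other changes was not tested. The member count thus depends on how many peaks each list holds, and without read totals the depth behind a missing peak is unknown. No paired analysis was possible because each group had 1 library and no replicate numbers.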
